A study of Mus musculus with 61 samples.

Results

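The liver makes most of the circulating complement and coagulation proteins, and the genes described here are 38 such liver-made factors, chosen by gene symbol: fibrinogen chains, clotting proteases and cofactors, anticoagulants, fibrinolytic proteins, and complement components with their inhibitors. All 38 were found among the 18754 genes of the deposited table, and all 38 were among the 16165 that passed a filter on low counts. Their RNA was measured in 60 liver libraries from the 8 inbred founder strains of the Diversity Outbred mouse stock: strain-129, NOD, NZO, PWK and WSB with 8 libraries each, B6 and Cast with 7 each, and AJ with 6. The names are those of the labels, which state no allele, sex, age or time of collection. Every strain received a high-fat, high-sugar diet (45% fat, per the labels), so no library comes from a mouse on another diet and no strain is a control. The labels do not say that each library is a separate mouse, so p-values are set by the spread among libraries, part of which may be technical.

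Clotting proceeds by serine proteases that activate one another on a phospholipid surface until thrombin converts fibrinogen to fibrin. Complement is a parallel protease cascade, started by antibody, by lectins or by spontaneous turnover of C3, that ends in a pore built from the terminal components. Both cascades are held in check by inhibitors of the serpin family and by cofactor proteins, and hepatocytes are the main source of most of the proteins on either side. Several of the genes, the fibrinogen chains among them, belong to the acute phase response that interleukin 6 drives in hepatocytes. Messenger RNA was measured here, and neither plasma protein nor protease activity.

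Together the 38 genes took a median of 4.63% of a library's reads, from 2.82% in NZO 7 to 8.71% in NZO 8. Cast 6 had the next highest share, 8.47%, and no strain had a median share below 3.69% (NZO) or above 5.06% (WSB). Levels are given below as CPM, reads of a gene per M reads of its library after normalisation between libraries, and levels of different genes are compared only per kilobase of exon. On that per-kilobase scale C3, the central complement protein, was highest at a mean of 1907 CPM per kb over all libraries. The 3 fibrinogen chains followed at 1797 (Fgg), 1772 (Fga) and 1176 CPM per kb (Fgb), and Apoh, the phospholipid-binding β2-glycoprotein I, was at 1091. The lowest were Masp1, a lectin pathway protease, at 9.51 CPM per kb and Pros1, protein S, at 13.6.

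The counts summed to between 19.98 and 69.2 M reads in a library (median 30.4 M). Hepatocyte markers (7 of 8 listed in the table, none at 0 in any library) summed to 33787 to 143942 CPM, lowest in NZO 8. NZO 8 also held the highest sums of neutrophil markers (1363 CPM), macrophage markers (946 CPM) and lymphocyte markers (8.42 CPM). The part of these in the values of NZO 8 was not tested. In such bulk samples fewer cells of a type and less RNA per cell cannot be told apart.

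Which of these genes differed among strains, and in which strain, was asked of a single edgeR quasi-likelihood model fitted to all genes. A gene is described as called when its Benjamini-Hochberg adjusted p was below 0.05. The level of 35 of the 38 genes differed among the 8 strains, where 89.8% of all genes tested did so, and the 3 that were not called were C3 (adjusted p = 0.205), F13b (0.104) and Kng1 (0.076). Strain accounted for a median of 47.5% of the variance of log2 CPM in these genes and 49.3% over all genes tested. Among the 38 genes that share ran from 18.0% in C9 to 92.3% in Cpb2. The highest and lowest strain means differed by a median of 0.83 on the log2 scale, against 0.97 over all genes and 0.67 over those with a mean of 5 CPM or more. These shares and ranges were near those of all genes tested.

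Each strain was then compared with the unweighted mean of the other 7, and fold changes below are log2 values of that contrast. WSB had the most genes called higher, 24 of the 38, with 2 lower, while 22.6% of all genes were called higher and 22.4% lower in WSB. In NZO the balance was the other way, with 2 genes higher and 14 lower against a background of 26.7% higher and 19.5% lower. B6 had none higher and 5 lower (background 19.4% and 14.7%), and Cast had 9 higher and 11 lower (30.8% and 28.8%). AJ had 8 higher and 2 lower (13.1% and 11%), PWK 5 higher and 7 lower (22.5% and 22.7%), strain-129 5 higher and 1 lower (13.7% and 10.9%), and NOD 4 higher and none lower (16.7% and 11.6%). The median fold change of the 38 genes was 0.35 in WSB and -0.17 in NZO, where that of all genes tested was -0.015 and 0.016. In B6 it was -0.15 (0.0094 over all genes). The 24 genes higher in WSB came from every role: all 4 complement inhibitors, 4 of 5 anticoagulants, 4 of 5 terminal components, 3 of 5 genes of thrombin generation, 2 of 4 in each of the contact, fibrinolysis, lectin and convertase groups, and 1 of 3 fibrinogen chains.

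**Figure D1:**
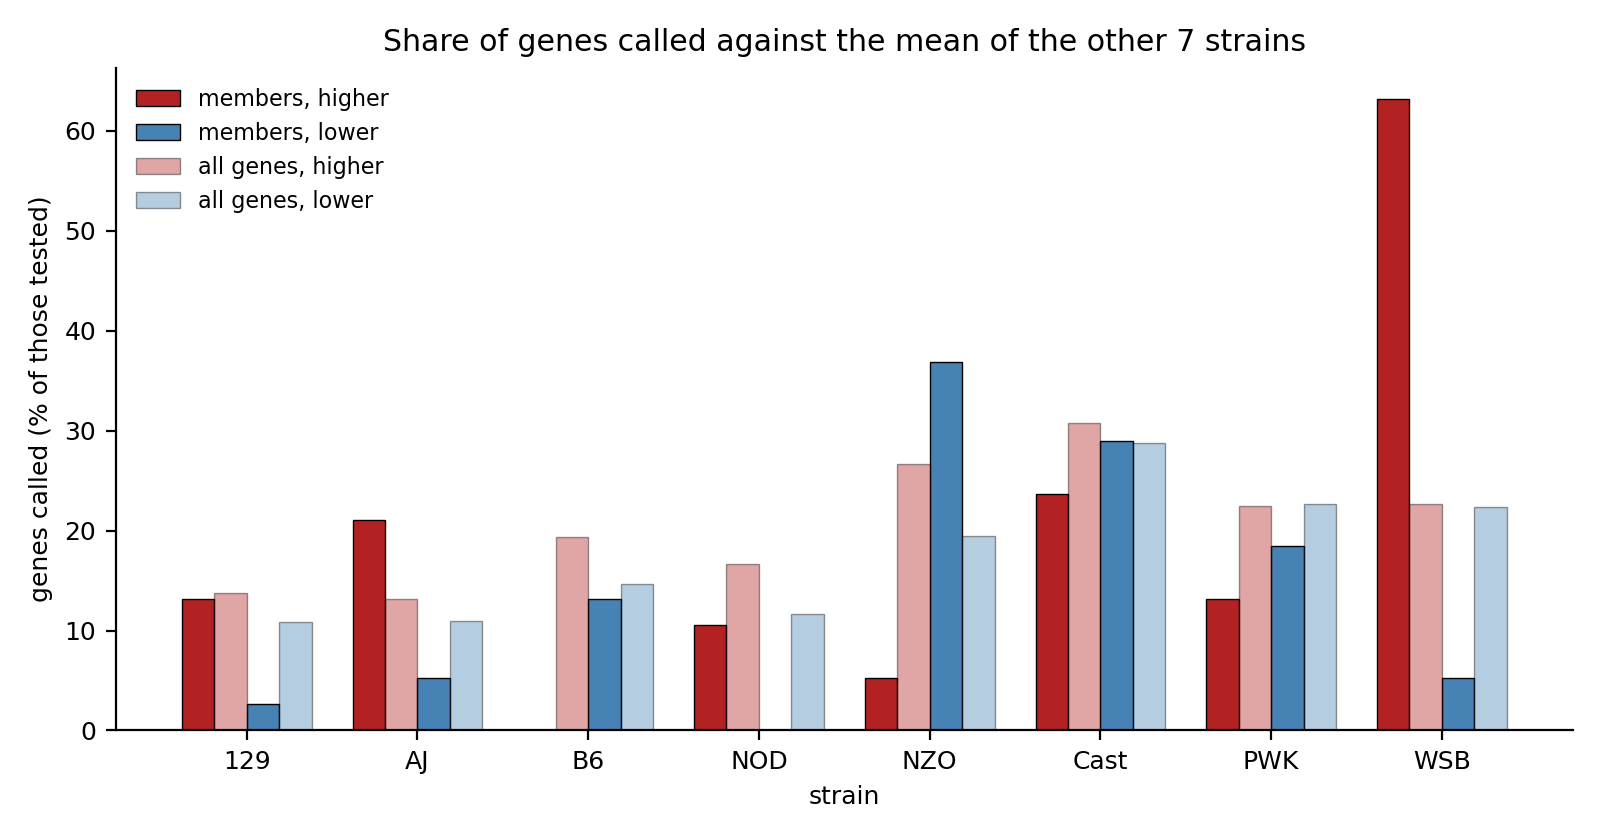
Share of genes called higher (red) and lower (blue) in each strain against the mean of the other 7, in percent of those tested. Dark bars stand for the 38 complement and coagulation genes and pale bars for all 16165 genes tested. The dark red bars of WSB (24 genes) and AJ (8 genes) lie above their pale bars, and in NZO the dark blue bar (14 genes) does.

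Between pairs of strains, a median of 12 of the 38 genes (31.6%) were called over the 28 pairs, against a median of 38.4% of all genes tested. NZO and WSB differed in the most, 22 genes, of which 21 were lower in NZO and 1 was higher (background 49.8% called). The fewest, 3 genes, were called between AJ and NOD (16.2%) and between strain-129 and NOD (16%). The NZO counts depended on a few libraries: without the 5 libraries of any strain with Saa1, an acute phase RNA, above 500 CPM (NZO 8, Cast 3, Cast 5, Cast 6 and WSB 6), NZO had 4 genes higher and 23 lower, AJ had 12 higher and 4 lower, B6 had 1 and 11, and NOD had 6 and 2. Without NZO 3, 4, 6 and 7, in which the ribosomal RNA Rn18s-rs5 took over 10% of the reads, NZO had 2 higher and 8 lower. Only NZO 1, 2, 5 and 8 were then left in that strain. The shares of all genes called in each strain without these libraries or those of high Saa1 were not counted, so these counts have no background.

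**Figure D2:**
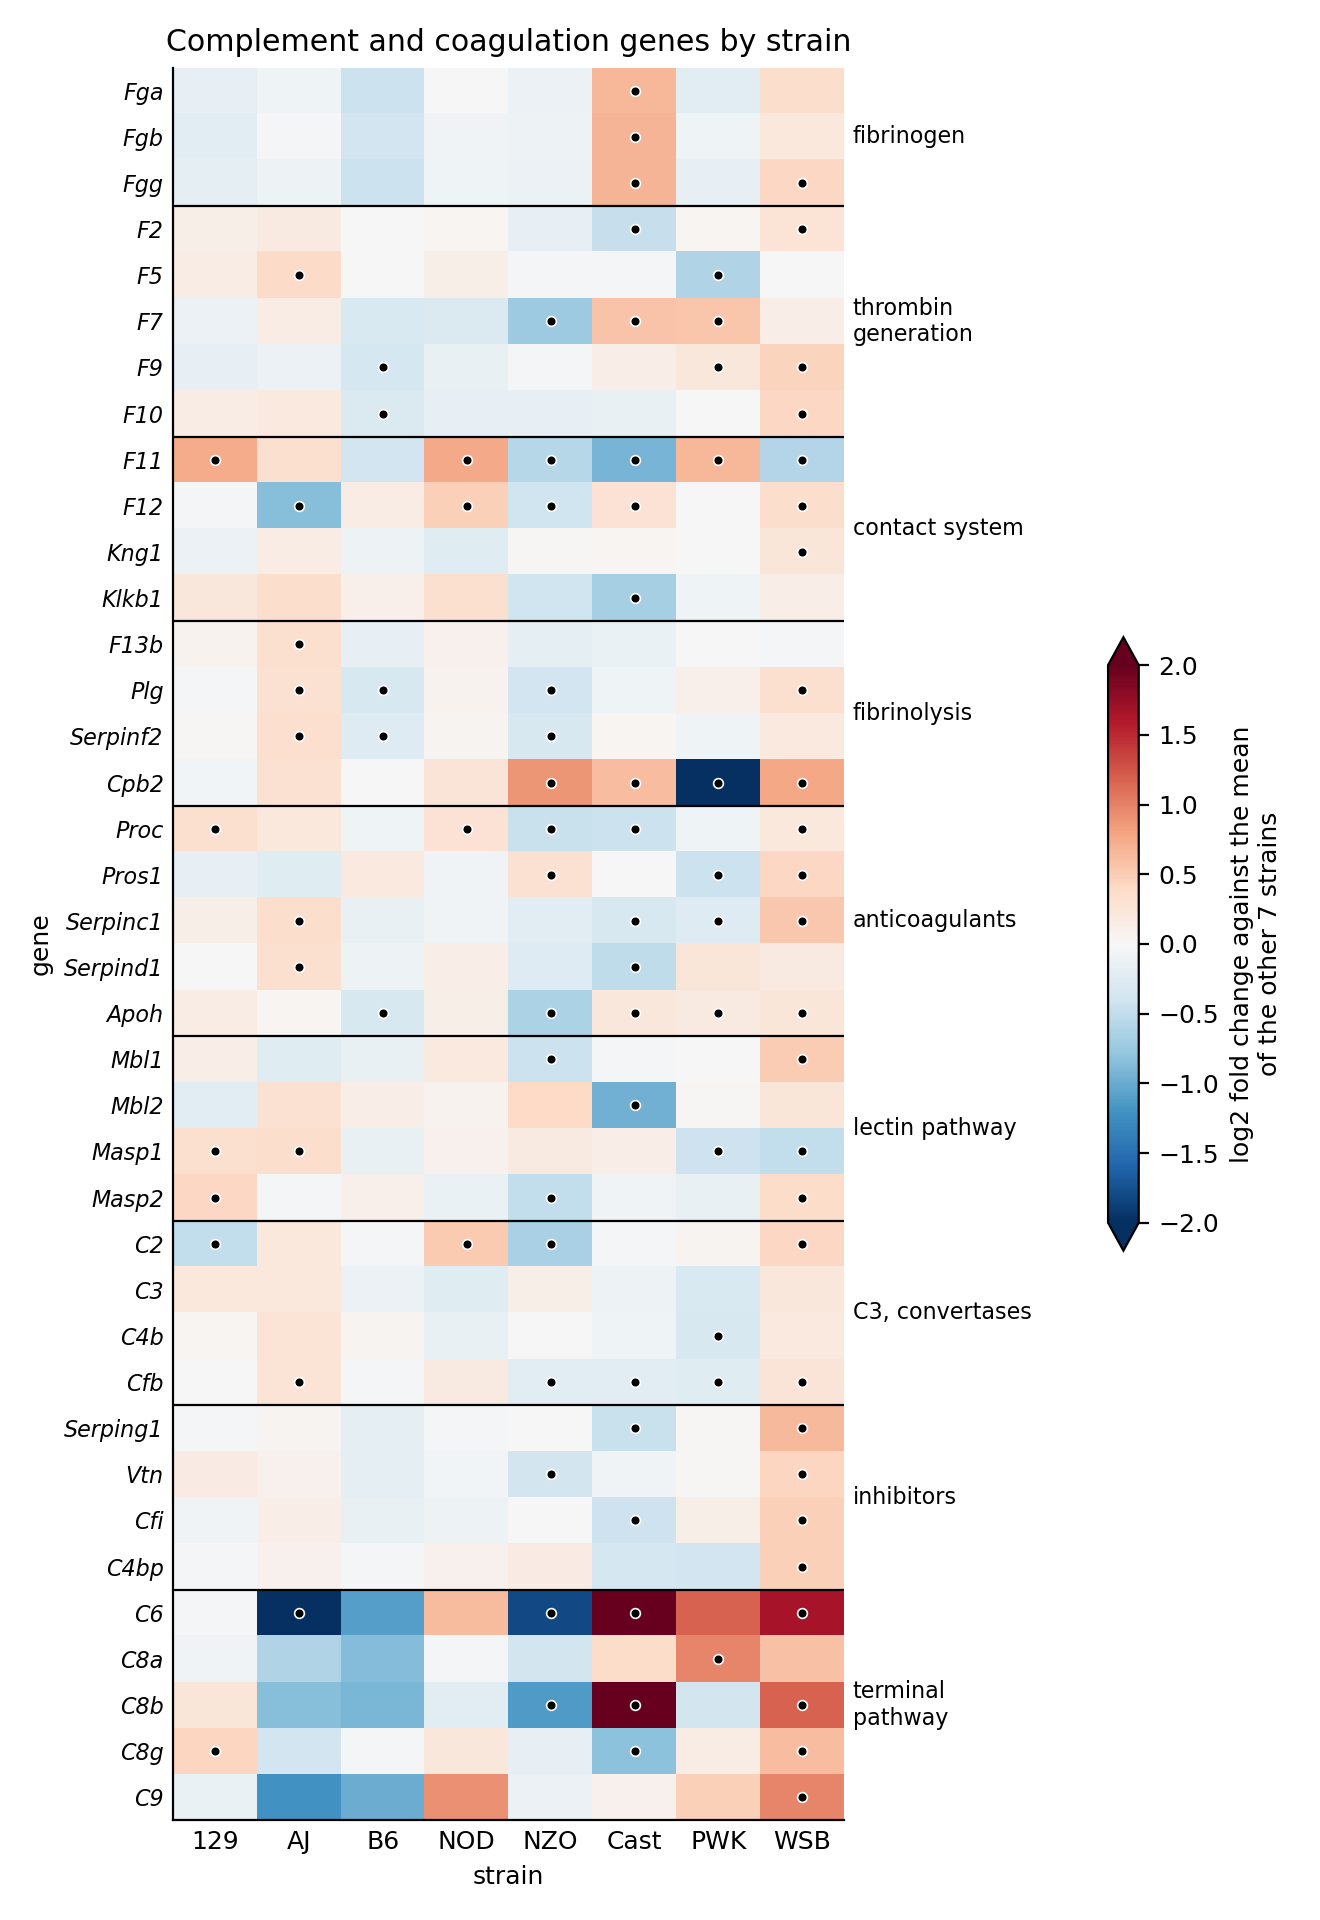
Log2 fold change of each of the 38 genes (rows, grouped by role) in each strain (columns) against the mean of the other 7 strains; red is higher, blue is lower, the colour scale is limited to 2 in either direction, and a dot marks a call. The WSB column is mostly red, Cpb2 in PWK and C6 in AJ are the darkest blue cells, and the terminal pathway rows hold the widest range of colours.

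Fibrinogen is a hexamer of paired Aα, Bβ and γ chains, encoded by the neighbouring genes Fga (GRCm38 chr3:83026076-83033627, plus strand), Fgb (chr3:83040141-83049863, minus strand) and Fgg (chr3:83007724-83015049, plus strand). The 3 chains moved together: all were called higher in Cast, with fold changes of 0.67 (SE 0.18, edgeR adjusted p = 0.00123, higher in 5 of 7 libraries) for Fga, 0.69 (SE 0.17, edgeR adjusted p = 0.000666, higher in 5 of 7 libraries) for Fgb and 0.67 (SE 0.17, edgeR adjusted p = 0.000634, higher in 6 of 7 libraries) for Fgg. Fga had, as the lowest, median and highest level among the libraries of a strain, 3689, 4833 and 5695 in strain-129, 4637, 4889 and 5888 in AJ, 3049, 4125 and 5159.9 in B6 and 4212, 5329 and 6052 in NOD (all in CPM). For Fga the other strains had 2753, 3494 and 13448 in NZO, 4283, 6001 and 18203 in Cast, 3341, 4490.1 and 6157 in PWK and 4508, 6122 and 10055 in WSB. The 7 Cast libraries spanned the widest range, and their lowest lay inside or below the range of every other strain. Fgg was also called higher in WSB, at 4733 ± 1133 CPM (SD, n = 8) and a log2 fold change of 0.41 (SE 0.16, edgeR adjusted p = 0.0358, higher in 8 of 8 libraries).

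The Cast difference in fibrinogen rested on few libraries. Cast 6 had 18203 CPM of Fga and Cast 5 had 10071, while the other 5 Cast libraries lay between 4283 and 6305. Without Cast 6 the fold changes in Cast were 0.33 (edgeR adjusted p = 0.107) for Fga, 0.35 (0.0759) for Fgb and 0.35 (0.0668) for Fgg. Without the 5 libraries of high Saa1 they were 0.12 (edgeR adjusted p = 0.485) for Fga, 0.12 (edgeR adjusted p = 0.451) for Fgb and 0.16 (edgeR adjusted p = 0.327) for Fgg. That fit called all 3 chains lower in NZO, with -0.43 (edgeR adjusted p = 0.00208) for Fga, and all 3 higher in WSB, with 0.38 (edgeR adjusted p = 0.00365). The libraries it left out include Cast 5, Cast 6 and NZO 8, the highest of their strains in Fga. Lower values in Cast and NZO were thus partly fixed by that choice. The WSB call of Fgg ended without WSB 6 (0.31, edgeR adjusted p = 0.155) and without WSB 8.

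Saa1, which encodes serum amyloid A and is a classic interleukin 6 target, was 7371 CPM in NZO 8, 3874 in Cast 6, 1126 in Cast 3, 1093 in WSB 6 and 571 in Cast 5. The other 55 libraries were below 500 CPM. The same libraries held the highest Fga levels apart from Cast 3: 18203 in Cast 6, 13448 in NZO 8, 10071 in Cast 5 and 10055 in WSB 6. Saa1 was then added to the model as a covariate, and slopes are log2 changes per doubling of Saa1. Fga rose by 0.13 per doubling (SE 0.021, edgeR adjusted p = 3.14e-05), Fgb by 0.12 per doubling (SE 0.020, edgeR adjusted p = 3.14e-05) and Fgg by 0.12 per doubling (SE 0.020, edgeR adjusted p = 3.56e-05). Cpb2, C3, C4b, C4bp and Pros1 also rose with Saa1, giving 8 of the 38 genes (background 8.66%). Apoh, C8g, F13b, F5, Klkb1, Masp2, Proc and Serpinc1 fell, 8 of the 38 (background 5.52%). Without Cast 6 and NZO 8 none of the 38 rose and 1 fell, F5 at -0.055 per doubling (edgeR adjusted p = 0.0287). The slope of Fga was then 0.053 per doubling (edgeR adjusted p = 0.252), while that of C4b was 0.063 (edgeR adjusted p = 0.0630) against 0.062 with all libraries. Over all genes the counts went from 1400 rising and 892 falling to 88 and 33.

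**Figure D3:**
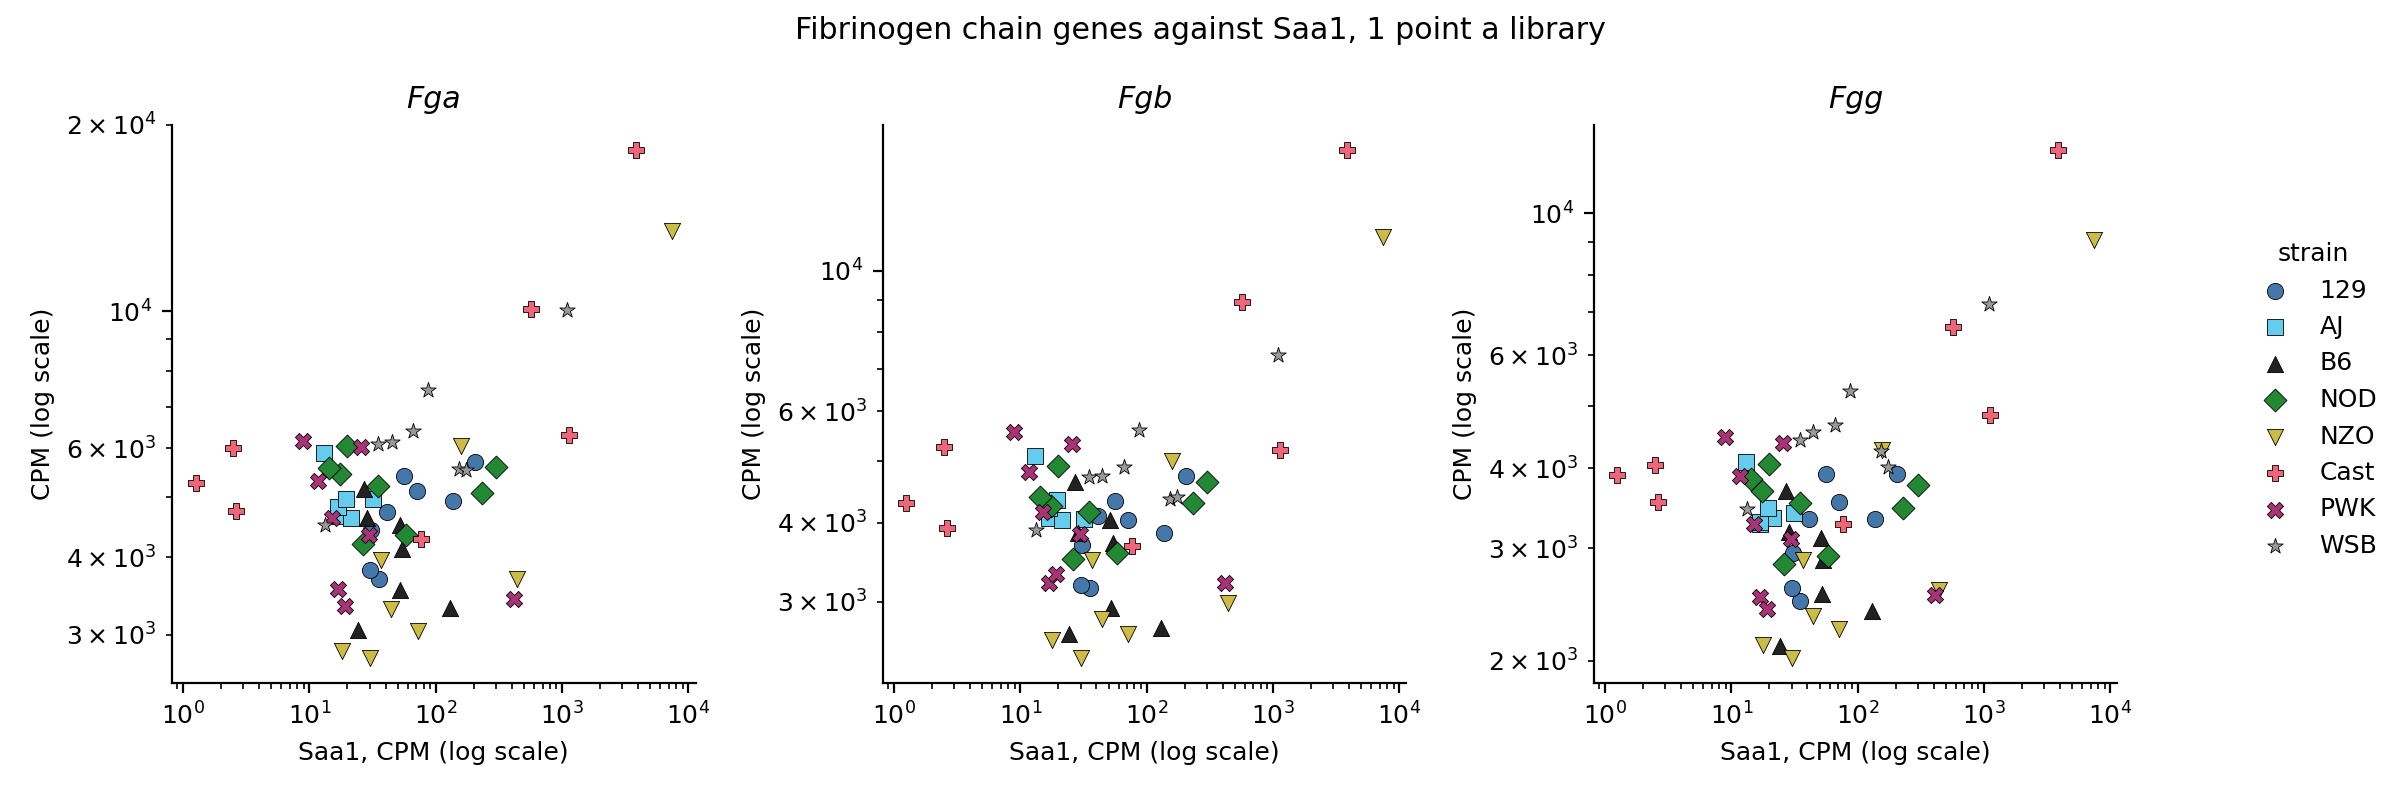
Level of the fibrinogen chain genes Fga, Fgb and Fgg (CPM, log scale) against Saa1 (CPM, log scale), with 1 point a library and a symbol for each strain. Cast 6 and NZO 8 lie alone at the upper right, with the highest Fga and Saa1 levels of the 60 libraries.

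The sequences just upstream of Fgb and Fgg are shown because these 2 of the 3 chains hold the motif below, which was not found in the window of Fga, although the slope of Fga on Saa1 was as large. They are the 250 bases before the start site, 5′ to 3′ on the gene's own strand, from RefSeq on GRCm38.p6 (Fgb chr3:83049864-83050113, minus strand, Fgg chr3:83007474-83007723, plus strand). Capitals mark CTGGGAA, the interleukin 6 response motif, found 91 bases before the Fgb start and 13 before that of Fgg.
Fgb: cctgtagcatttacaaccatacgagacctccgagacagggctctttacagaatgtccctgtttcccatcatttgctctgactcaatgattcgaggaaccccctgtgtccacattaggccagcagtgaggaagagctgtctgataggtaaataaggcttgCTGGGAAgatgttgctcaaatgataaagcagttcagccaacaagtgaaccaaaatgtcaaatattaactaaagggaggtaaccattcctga
Fgg: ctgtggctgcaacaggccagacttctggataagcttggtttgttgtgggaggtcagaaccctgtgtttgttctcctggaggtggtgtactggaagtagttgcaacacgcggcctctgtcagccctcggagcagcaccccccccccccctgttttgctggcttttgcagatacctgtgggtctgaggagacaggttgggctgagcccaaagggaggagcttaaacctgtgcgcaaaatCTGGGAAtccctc
Searched on both strands, CTGGGAA occurred in the upstream windows of 4 of the 29 genes with a promoter entry and in 9.1% of all 32851 windows. TTCNNNGAA, the STAT motif, occurred in 6 of the 29, among them Fga and Fgb (7.02% of all windows). The C/EBP motif TTGCNNAA occurred in 7, Fga and Fgb included (9.56%). Each match is a description of letters in a short window.

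The genes of thrombin generation, prothrombin (F2), factor 5 and the vitamin K-dependent factors 7, 9 and 10, had called fold changes below 1 in absolute value. In WSB 3 of the 5 were called higher, F2, F9 and F10, and none lower. F9, on chromosome X and the gene mutated in haemophilia B, was 279 ± 54.8 CPM (SD, n = 8) in WSB with a log2 fold change of 0.44 (SE 0.08, edgeR adjusted p = 1.29e-05, higher in 8 of 8 libraries), and 173 ± 21.3 CPM (SD, n = 7) in B6 with a log2 fold change of -0.35 (SE 0.09, edgeR adjusted p = 0.00212, lower in 7 of 7 libraries). F10, the protease that forms prothrombinase with factor 5, was lower in B6 at 327 ± 53.0 CPM (SD, n = 7), with a log2 fold change of -0.29 (SE 0.10, edgeR adjusted p = 0.0166, lower in 6 of 7 libraries). That call ended without B6 6 (-0.25, edgeR adjusted p = 0.0628) or without B6 8. F2 was lower in Cast at 1134 ± 264 CPM (SD, n = 7), with a log2 fold change of -0.47 (SE 0.08, edgeR adjusted p = 4.44e-06, lower in 7 of 7 libraries). F5, the cofactor, was lower in PWK at 673 ± 40.7 CPM (SD, n = 8), with a log2 fold change of -0.61 (SE 0.09, edgeR adjusted p = 1.26e-07, lower in 8 of 8 libraries), and higher in AJ at 1223 ± 68.3 CPM (SD, n = 6), with a log2 fold change of 0.38 (SE 0.09, edgeR adjusted p = 0.00184, higher in 6 of 6 libraries). PWK was the lowest strain for F5 and its 8 libraries reached at most 722 CPM, below every library of strain-129, AJ, B6, NOD, NZO and WSB. Only 2 Cast libraries lay lower, Cast 5 at 460.2 and Cast 6 at 573 CPM.

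F7 (GRCm38 chr8:13026034-13035809, plus strand) encodes factor 7, which tissue factor engages to start clotting. F7 had 58.3, 80.5 and 104 in strain-129, 82.4, 94.2 and 112 in AJ, 40.2, 78.2 and 96.5 in B6 and 64.1, 68.7 and 88.9 in NOD. For F7 the other strains had 38.4, 55.9 and 75.4 in NZO, 54.2, 113 and 174 in Cast, 81.9, 126 and 155 in PWK and 61.2, 91.9 and 128 in WSB. The strain means of log2 CPM spanned 2.15-fold, from NZO to PWK, and the NZO libraries overlapped every strain but AJ and PWK. F7 was lower in NZO, with a log2 fold change of -0.72 (SE 0.15, edgeR adjusted p = 5.09e-05, lower in 8 of 8 libraries), and higher in Cast, with 0.58 (edgeR adjusted p = 0.000355), and in PWK, with 0.56 (edgeR adjusted p = 0.000367).

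The contact system and factor 11 form the surface-triggered arm of clotting, and 3 of its 4 genes were among the 12 of the 38 with the widest range over strains. F11 (GRCm38 chr8:45241170-45262031, minus strand), whose protein activates factor 9, was called in 6 of the 8 strains. F11 levels were 74.3, 94.6 and 128.7 in strain-129, 56.3, 75.1 and 106 in AJ, 38.3, 48.0 and 68.3 in B6 and 56.8, 101 and 142 in NOD. For F11 the other strains had 34.8, 43.1 and 53.8 in NZO, 17.5, 33.1 and 61.2 in Cast, 78.6, 92.5 and 115 in PWK and 30.6, 47.4 and 52.5 in WSB. Mean F11 was highest in NOD, strain-129 and PWK and lowest in Cast. All 8 libraries of strain-129 and of PWK lay above every library of NZO, Cast and WSB. The fold changes were 0.74 (SE 0.14, edgeR adjusted p = 2.16e-05, higher in 8 of 8 libraries) in strain-129, 0.76 (SE 0.14, edgeR adjusted p = 1.38e-05, higher in 7 of 8 libraries) in NOD and 0.67 (SE 0.14, edgeR adjusted p = 5.23e-05, higher in 8 of 8 libraries) in PWK. F11 was lower in Cast, with a log2 fold change of -0.93 (SE 0.17, edgeR adjusted p = 3.49e-06, lower in 7 of 7 libraries), in NZO, with -0.57 (edgeR adjusted p = 0.00166), and in WSB, with -0.59 (edgeR adjusted p = 0.0012). WSB was thus below the mean of the other 7 strains in F11, while most of the 38 genes were called higher there. The level in WSB was above that in Cast by 0.30 on the log2 scale, but this pair was not called (edgeR adjusted p = 0.220).

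F12 (GRCm38 chr13:55417958-55426793, minus strand) encodes factor 12, the protease that starts the contact system. F12 had 286, 319.7 and 340.0 in strain-129, 121, 206 and 219 in AJ, 348, 353 and 377 in B6 and 376, 439.5 and 476 in NOD. For F12 the other strains had 118, 273 and 303 in NZO, 299, 385 and 445 in Cast, 296, 322 and 362 in PWK and 357, 401 and 441 in WSB. The 6 AJ libraries lay below every other library except NZO 5, at 118 CPM. AJ was lower with a log2 fold change of -0.84 (SE 0.10, edgeR adjusted p = 5.57e-10, lower in 6 of 6 libraries) and NZO with -0.40 (edgeR adjusted p = 5.21e-05). NOD was higher with a log2 fold change of 0.48 (SE 0.08, edgeR adjusted p = 1.53e-06, higher in 8 of 8 libraries), WSB with 0.35 (edgeR adjusted p = 0.000174) and Cast with 0.29 (edgeR adjusted p = 0.00174). In the order of strain levels the lowest neighbours differed: NZO was above AJ by 0.38 (edgeR adjusted p = 0.00793) and strain-129 above NZO by 0.32 (0.0136).

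Klkb1 (GRCm38 chr8:45269442-45294859, minus strand) encodes plasma prekallikrein and lies next to F11. It overlaps exons of Cyp4v3, so its count is uncertain. Klkb1 levels were 187, 220.4 and 255 in strain-129, 195, 244 and 272 in AJ, 170.3, 206 and 229 in B6 and 216, 234 and 254 in NOD. For Klkb1 the other strains had 90.6, 154 and 200.5 in NZO, 7.84, 182 and 218 in Cast, 159, 184 and 204 in PWK and 162, 214 and 238 in WSB. Cast was lower, with a log2 fold change of -0.67 (SE 0.22, edgeR adjusted p = 0.00877, lower in 6 of 7 libraries), and no other strain was called. The Cast libraries were split, with Cast 5 at 7.84, Cast 6 at 26.0 and Cast 1 at 73.3 CPM and the other 4 between 182 and 218. Cast 5 and Cast 6 were among the libraries of high Saa1 and Cast 1 was not, at 2.50 CPM of Saa1. Kng1, high-molecular-weight kininogen, was the most even of the 38 genes: its strain means of log2 CPM spanned 1.32-fold, and mean CPM ran from 1551 ± 157 CPM (SD, n = 8) in NOD to 2084 ± 452 CPM (SD, n = 8) in WSB. Kng1 had 1344, 1642 and 1973 in strain-129, 1854, 1952 and 2118 in AJ, 1387, 1733 and 2002 in B6 and 1309, 1581 and 1774 in NOD. For Kng1 the other strains had 1332, 1691 and 3239.6 in NZO, 1112, 1904 and 2205 in Cast, 1466, 1779 and 2166 in PWK and 1582, 2092 and 2786 in WSB. All pairs of strains overlapped except AJ and NOD. Kng1 did not pass the test among strains but was called higher in WSB, with 0.24 (edgeR adjusted p = 0.0414), and reads could be shared with its near-identical copy Kng2.

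**Figure D4:**
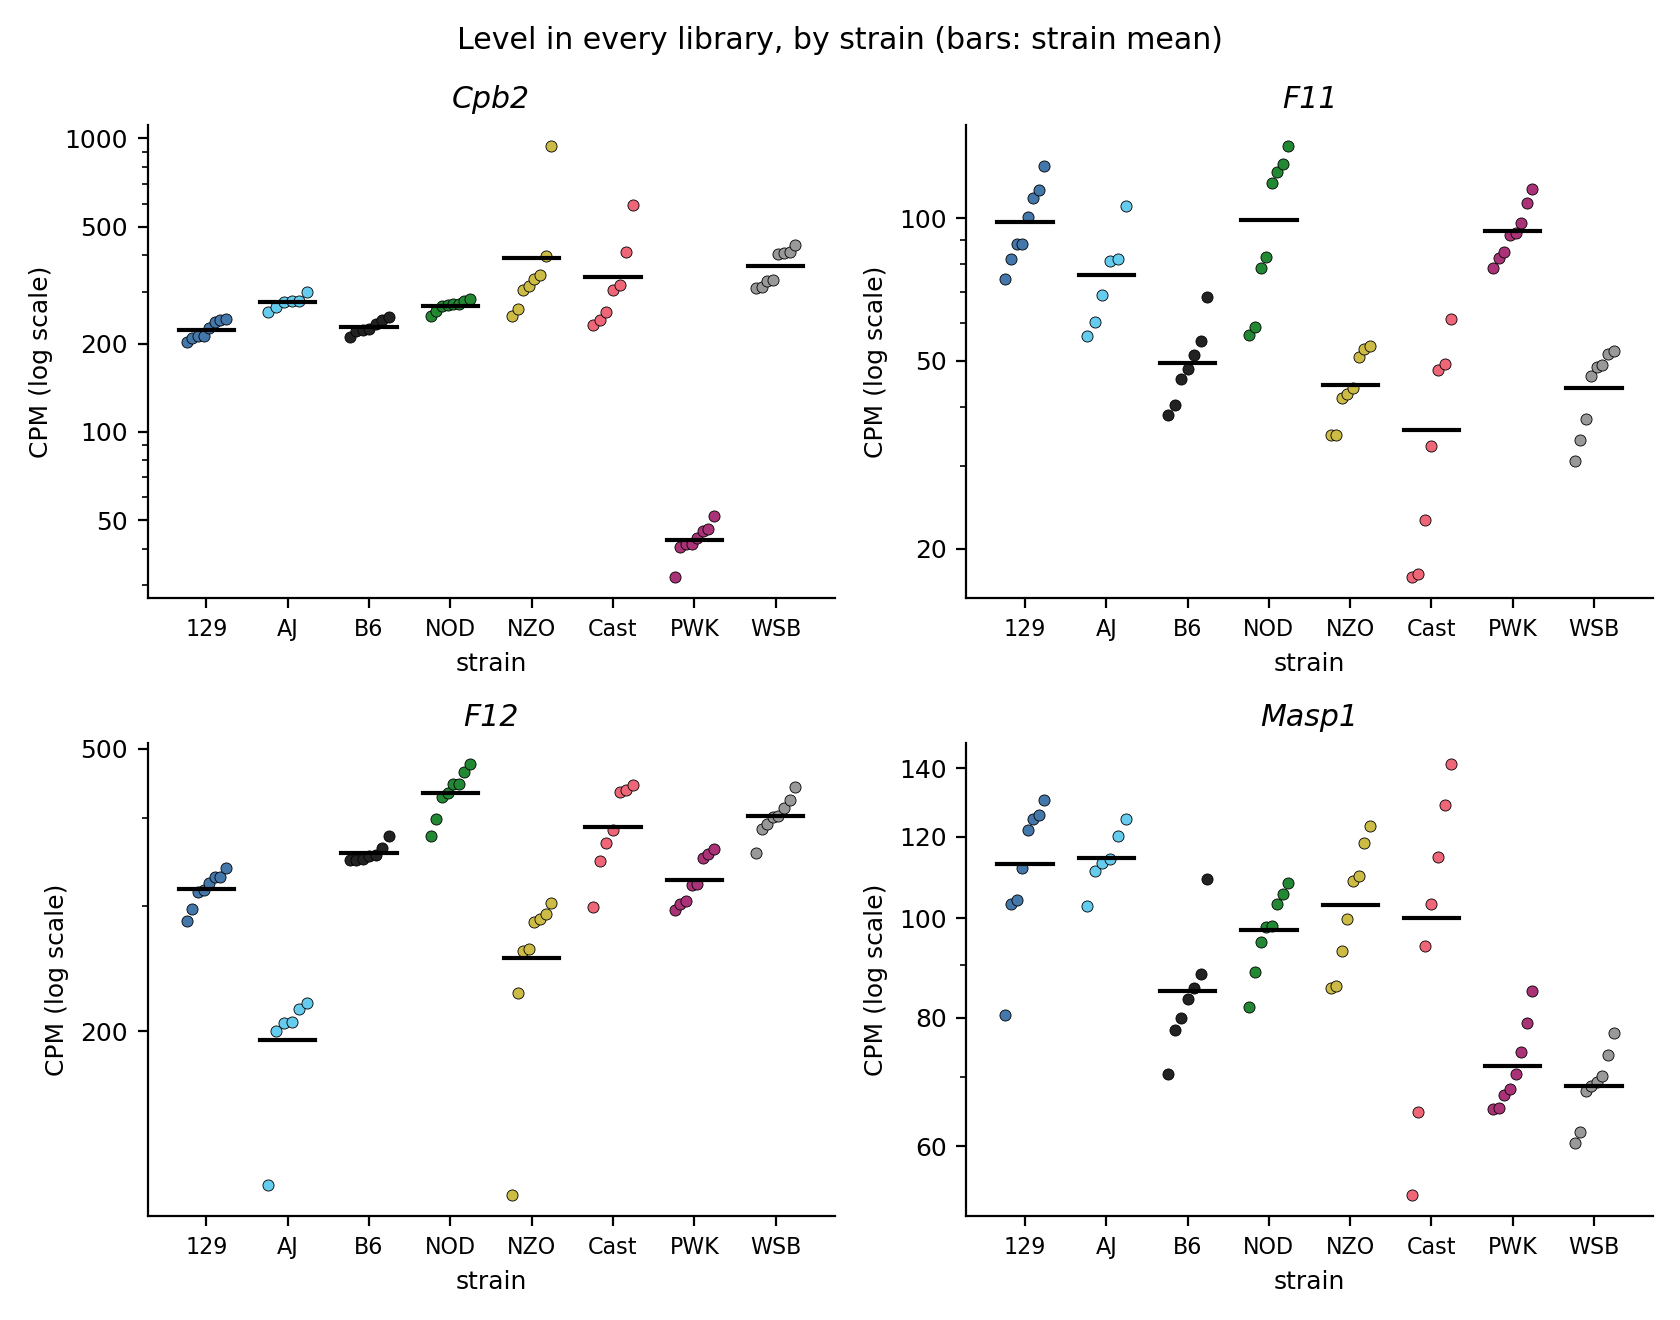
Level of Cpb2, F11, F12 and Masp1 (CPM, log scale) in every library, by strain, with a bar at the strain mean. The 8 PWK libraries of Cpb2 lie below all other libraries, F11 is highest in strain-129, NOD and PWK, and the AJ libraries of F12 and the PWK and WSB libraries of Masp1 lie low.

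The largest single strain difference outside the terminal complement genes was in Cpb2 (GRCm38 chr14:75242287-75283551, plus strand), which encodes the carboxypeptidase TAFI, a brake on fibrin breakdown. Cpb2 levels were 203, 219 and 243 in strain-129, 257, 278 and 300.0 in AJ, 211, 225 and 247 in B6 and 248, 272 and 284 in NOD. For Cpb2 the other strains had 248, 323 and 941 in NZO, 232, 304 and 594 in Cast, 32.1, 42.6 and 51.9 in PWK and 310.1, 366 and 434 in WSB. The 8 PWK libraries, at most 51.9 CPM, did not overlap any library of the other 7 strains, none of which was below 203 CPM. In PWK Cpb2 had a log2 fold change of -2.77 (SE 0.15, edgeR adjusted p = 8.65e-23, lower in 8 of 8 libraries), a level 6.80-fold lower. Its nearest neighbour, strain-129, was 2.37 higher on the log2 scale (edgeR adjusted p = 7.64e-18). Cpb2 was higher in NZO, with a log2 fold change of 0.88 (SE 0.11, edgeR adjusted p = 4.12e-09, higher in 8 of 8 libraries), in WSB, with 0.77 (edgeR adjusted p = 1.66e-07), and in Cast, with 0.62 (edgeR adjusted p = 1.67e-05). NZO 8 held the highest level of all, 941 CPM, and the other 7 NZO libraries lay between 248 and 397 CPM; without NZO 8 the fold change in NZO was 0.54. Whether reads of PWK, a strain far from the reference genome, align to Cpb2 as well as those of B6 was not tested.

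Of the other genes of fibrin crosslinking and breakdown, Plg encodes plasminogen, the precursor of the protease that cuts fibrin. Plg was higher in AJ (3453 ± 206 CPM, SD, n = 6), with a log2 fold change of 0.31 (SE 0.09, edgeR adjusted p = 0.0116, higher in 6 of 6 libraries), and lower in B6 (2357 ± 363 CPM, SD, n = 7), with a log2 fold change of -0.32 (SE 0.09, edgeR adjusted p = 0.00624, lower in 7 of 7 libraries). It was also higher in WSB and lower in NZO. Serpinf2, whose product α2-antiplasmin inhibits plasmin, was called in 3 of the same strains: higher in AJ, 0.33 (edgeR adjusted p = 0.0127), and lower in B6, -0.26 (edgeR adjusted p = 0.0404), and NZO, -0.32 (edgeR adjusted p = 0.0053). F13b, the carrier subunit of the crosslinking factor 13, was not called among strains but was higher in AJ, 0.33 (edgeR adjusted p = 0.0328). Plg overlaps exons of Slc22a3.

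Among the 5 anticoagulant genes, 4 were called higher in WSB. Serpinc1, antithrombin, was 2841 ± 289 CPM (SD, n = 8) in WSB, with a log2 fold change of 0.54 (SE 0.10, edgeR adjusted p = 6.62e-06, higher in 8 of 8 libraries). Proc, protein C, was higher in strain-129 (301 ± 23.1 CPM, SD, n = 8), with a log2 fold change of 0.32 (SE 0.09, edgeR adjusted p = 0.00385, higher in 8 of 8 libraries), and in NOD (296 ± 25.0 CPM, SD, n = 8), with 0.29 (edgeR adjusted p = 0.00806). It was lower in NZO, -0.44 (edgeR adjusted p = 5.97e-05), and in Cast, -0.43 (edgeR adjusted p = 0.000154). Cast 1, 5 and 6 held 159, 78.9 and 135 CPM of Proc, and Cast 2, 3, 7 and 8 held 231 to 256. Pros1, protein S, the cofactor of protein C, was lower in PWK (42.2 ± 5.22 CPM, SD, n = 8), with a log2 fold change of -0.43 (SE 0.09, edgeR adjusted p = 0.000152, lower in 8 of 8 libraries), and higher in NZO, 0.30 (edgeR adjusted p = 0.00454), and in WSB, 0.41 (edgeR adjusted p = 0.000122). In NZO, Proc and Pros1 were thus called in opposite directions, with NZO 8 at 109.7 CPM of Pros1 and the other NZO libraries at 54.0 to 66.2.

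Apoh was called in 5 strains and had the next largest share of variance among strains of the 38 genes, 75.8%. It was lowest in NZO, at 1166 ± 165 CPM (SD, n = 8) with a log2 fold change of -0.63 (SE 0.07, edgeR adjusted p = 2.38e-11, lower in 8 of 8 libraries), and next lowest in B6, at 1410.0 ± 70.0 CPM (SD, n = 7) with a log2 fold change of -0.32 (SE 0.07, edgeR adjusted p = 0.00026, lower in 7 of 7 libraries). B6 was above NZO by 0.27 (edgeR adjusted p = 0.0176) and AJ above B6 by 0.32 (0.0112). It was higher in WSB, 0.25 (edgeR adjusted p = 0.00121), Cast, 0.23 (edgeR adjusted p = 0.00325), and PWK, 0.17 (edgeR adjusted p = 0.0227). Serpind1, heparin cofactor 2, was higher in AJ, 0.31 (edgeR adjusted p = 0.0426), and lower in Cast, -0.51 (edgeR adjusted p = 0.000197). The Cast libraries were split: Cast 1, 5 and 6 held 167, 145 and 226 CPM of Serpind1, and Cast 2, 3, 7 and 8 held 460 to 498. Apoh overlaps exons of Prkca and Serpinc1 those of Zbtb37, and whether the counting used strand is not given in the sources used here.

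The lectin pathway starts complement when mannose-binding lectins meet microbial sugars and activate the proteases Masp1 and Masp2. Mbl2 (GRCm38 chr19:30232928-30239685, plus strand) was lower in Cast, with a log2 fold change of -0.97 (SE 0.21, edgeR adjusted p = 0.000116, lower in 7 of 7 libraries). Mbl2 had 169, 215 and 316 in strain-129, 241, 327 and 363 in AJ, 178, 323 and 366 in B6 and 170.2, 261 and 412 in NOD. For Mbl2 the other strains had 196, 347 and 523 in NZO, 66.9, 142 and 234 in Cast, 174, 265 and 372 in PWK and 169, 262 and 495 in WSB. The other strains overlapped, and the highest Cast library, at 234 CPM, lay below all AJ libraries. Its neighbour, strain-129, was above Cast by 0.64 (edgeR adjusted p = 0.0307). Mbl1 was lower in NZO, -0.43 (edgeR adjusted p = 0.0113), and higher in WSB, 0.50 (edgeR adjusted p = 0.00143).

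Masp1 went against the general pattern of WSB. It was lower in WSB (68.7 ± 5.55 CPM, SD, n = 8), with a log2 fold change of -0.49 (SE 0.09, edgeR adjusted p = 1.08e-05, lower in 8 of 8 libraries), and in PWK (71.8 ± 7.07 CPM, SD, n = 8), with a log2 fold change of -0.42 (SE 0.09, edgeR adjusted p = 9.99e-05, lower in 8 of 8 libraries). It was higher in AJ (114 ± 7.67 CPM, SD, n = 6), with a log2 fold change of 0.35 (SE 0.10, edgeR adjusted p = 0.00463, higher in 6 of 6 libraries), and in strain-129 (113 ± 16.6 CPM, SD, n = 8), with 0.33 (edgeR adjusted p = 0.00268). Masp1 and F11 were the 2 genes of the 38 called lower in WSB. Masp2 was higher in strain-129 (219.7 ± 8.99 CPM, SD, n = 8), with a log2 fold change of 0.42 (SE 0.07, edgeR adjusted p = 6.93e-06, higher in 8 of 8 libraries), and in WSB, 0.37 (edgeR adjusted p = 2.89e-05), and lower in NZO (126 ± 15.2 CPM, SD, n = 8), with a log2 fold change of -0.49 (SE 0.08, edgeR adjusted p = 5.1e-07, lower in 8 of 8 libraries). The 2 proteases thus differed in direction in WSB. Masp2 overlaps exons of Tardbp.

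C3 and the proteins that form its convertases, C2, C4b and Cfb (factor B), were among the even genes, apart from C2. C3 (GRCm38 chr17:57203970-57228136, minus strand) ran from 8137 ± 1678 CPM (SD, n = 8) in PWK to 11193 ± 2034 CPM (SD, n = 8) in WSB. C3 levels were 7416, 10382 and 15397 in strain-129, 9174, 11018 and 12801 in AJ, 5477, 10199.7 and 13065 in B6 and 5408, 8451 and 12027 in NOD. For C3 the other strains had 7064, 8971 and 21791 in NZO, 6073, 8186 and 17059 in Cast, 6144, 8037 and 10351 in PWK and 8370.3, 11566 and 13603 in WSB. All strains overlapped and C3 was called in none of the 8 contrasts. NZO 8 and Cast 6 held the highest levels, 21791 and 17059 CPM. Cfb (GRCm38 chr17:34856374-34862518, minus strand), the convertase protease of the alternative pathway, spanned 1.40-fold between strain means of log2 CPM. Cfb had 918, 1209 and 1414 in strain-129, 1269, 1421 and 1471 in AJ, 938, 1227 and 1339 in B6 and 1150.3, 1270.4 and 1519 in NOD. For Cfb the other strains had 742, 968 and 1512 in NZO, 577, 1063 and 1392 in Cast, 817, 994 and 1223 in PWK and 1180.2, 1405 and 1549 in WSB. The AJ libraries lay above those of PWK, and all other pairs of strains overlapped. Cfb was called in 5 strains, higher in AJ, 0.28 (edgeR adjusted p = 0.0422), and WSB, 0.26 (edgeR adjusted p = 0.0163), and lower in NZO, -0.23 (edgeR adjusted p = 0.041), PWK, -0.24 (edgeR adjusted p = 0.038), and Cast, -0.22 (edgeR adjusted p = 0.0494).

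C2 (GRCm38 chr17:34862604-34898265, minus strand), the protease of the classical and lectin convertase, varied more. C2 levels were 50.9, 56.4 and 88.2 in strain-129, 87.1, 91.6 and 107 in AJ, 64.7, 78.1 and 114 in B6 and 96.4, 115 and 128 in NOD. For C2 the other strains had 40.1, 55.0 and 83.1 in NZO, 36.3, 76.1 and 130.0 in Cast, 65.0, 76.9 and 124 in PWK and 63.3, 107 and 168 in WSB. The NOD libraries lay above all those of strain-129 and NZO. C2 was higher in NOD, with a log2 fold change of 0.53 (SE 0.13, edgeR adjusted p = 0.00176, higher in 8 of 8 libraries), and lower in NZO, with a log2 fold change of -0.65 (SE 0.15, edgeR adjusted p = 0.000259, lower in 8 of 8 libraries), and in strain-129, with -0.50 (edgeR adjusted p = 0.00817). It was also higher in WSB, 0.42 (edgeR adjusted p = 0.00852), which became 0.27 (edgeR adjusted p = 0.0641) without the libraries of high Saa1. C4b, which encodes complement C4, was lower in PWK, -0.32 (edgeR adjusted p = 0.0103), and its reads could be shared with the near-identical C4a. C2 and Cfb both overlap exons of Gm20547.

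All 4 complement inhibitors were called higher in WSB, and none was called higher in any other strain. Serping1, the C1 inhibitor, which also blocks factor 12 and kallikrein, was 981 ± 96.9 CPM (SD, n = 8) in WSB, with a log2 fold change of 0.65 (SE 0.08, edgeR adjusted p = 7.94e-09, higher in 8 of 8 libraries). Its neighbour in order, AJ, was lower by 0.52 on the log2 scale (edgeR adjusted p = 0.00104). Cfi, factor I, which cuts C3b and C4b, was higher in WSB, 0.48 (edgeR adjusted p = 3.25e-05), and C4bp, the C4b-binding cofactor, 0.47 (edgeR adjusted p = 0.0131). Vtn, vitronectin, which binds the terminal complex, was higher in WSB, 0.44 (edgeR adjusted p = 2.73e-05), and lower in NZO, -0.37 (edgeR adjusted p = 0.000566). Serping1 and Cfi were lower in Cast, -0.44 (edgeR adjusted p = 0.000143) and -0.42 (edgeR adjusted p = 0.000749). For Cfi the Cast libraries were split: Cast 1, 5 and 6 held 292, 254 and 359 CPM, and Cast 2, 3, 7 and 8 held 540 to 591.

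The terminal components, C6, C8 and C9 among them, build the membrane attack pore, and 5 of their genes are among the 38. All 5 were among the 12 of the 38 with the widest range over strains. C6 (GRCm38 chr15:4727175-4815456, plus strand) spanned 15.3-fold between the highest and lowest strain means of log2 CPM, the most of the 38. C6 had 10.6, 126 and 539 in strain-129, 9.62, 15.5 and 62.6 in AJ, 28.4, 34.2 and 188 in B6 and 12.3, 216 and 516 in NOD. For C6 the other strains had 25.0, 45.1 and 99.6 in NZO, 25.7, 385 and 2491 in Cast, 142, 308 and 625 in PWK and 9.71, 421 and 1097 in WSB. By these strain means AJ was lowest and PWK highest, while Cast had the highest mean CPM. Libraries of 1 strain differed widely, and most pairs of strains overlapped, the PWK libraries lying above all those of AJ and NZO. C6 was lower in AJ, with a log2 fold change of -3.25 (SE 0.99, edgeR adjusted p = 0.0111, lower in 6 of 6 libraries), and higher in Cast, with a log2 fold change of 2.70 (SE 0.57, edgeR adjusted p = 5.08e-05, higher in 4 of 7 libraries). It was lower in NZO, with -1.80 (edgeR adjusted p = 0.0498), a call that ended on leaving out any of 31 libraries in turn (adjusted p up to 0.0889), and higher in WSB, with 1.66 (edgeR adjusted p = 0.0165), a call that ended without WSB 5 (adjusted p = 0.0782) or without WSB 6.

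C8b (GRCm38 chr4:104766317-104804548, plus strand) and C8a (chr4:104815679-104876398, minus strand) lie side by side and encode the β and α chains of C8. C8b levels were 60.2, 157 and 482 in strain-129, 40.3, 75.7 and 192 in AJ, 41.0, 74.0 and 201 in B6 and 27.1, 133 and 257 in NOD. For C8b the other strains had 28.5, 58.1 and 163 in NZO, 131, 418 and 1180.0 in Cast, 59.1, 126 and 225 in PWK and 22.0, 406 and 569.5 in WSB. Cast was highest by mean and NZO lowest, and all strains overlapped. C8b was higher in Cast, with a log2 fold change of 2.06 (SE 0.34, edgeR adjusted p = 9.11e-07, higher in 7 of 7 libraries), and in WSB, with a log2 fold change of 1.18 (SE 0.35, edgeR adjusted p = 0.00489, higher in 5 of 8 libraries), and lower in NZO, with a log2 fold change of -1.13 (SE 0.42, edgeR adjusted p = 0.025, lower in 6 of 8 libraries), a call that ended without any of NZO 1 to 4. C8a had 231, 495 and 963 in strain-129, 124, 256 and 745 in AJ, 111, 231 and 585 in B6 and 107, 582 and 912 in NOD. For C8a the other strains had 138, 324 and 1012 in NZO, 68.1, 638 and 1406 in Cast, 487, 985 and 1559 in PWK and 154, 972 and 1231 in WSB. All strains overlapped in C8a too. C8a was called in PWK alone, where it was higher, with a log2 fold change of 0.98 (SE 0.34, edgeR adjusted p = 0.0155, higher in 8 of 8 libraries).

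C9 (GRCm38 chr15:6445327-6498751, plus strand), which forms most of the pore wall, had the smallest share of variance among strains of the 38 genes, 18.0%. C9 levels were 127, 323 and 625 in strain-129, 123, 159 and 283 in AJ, 126, 223 and 309 in B6 and 175, 660.4 and 1165 in NOD. For C9 the other strains had 195, 308 and 594 in NZO, 68.4, 182 and 1057 in Cast, 154, 429.9 and 1059 in PWK and 56.2, 754 and 1308 in WSB. The strains overlapped throughout. C9 was called in WSB, higher, with a log2 fold change of 0.97 (SE 0.37, edgeR adjusted p = 0.0268, higher in 5 of 8 libraries). C8g (GRCm38 chr2:25498651-25501719, minus strand), the γ chain of C8 and a lipocalin, had narrower ranges within most strains. C8g had 236, 256 and 281 in strain-129, 98.1, 166 and 178 in AJ, 175, 191 and 224 in B6 and 215, 224 and 234 in NOD. For C8g the other strains had 92.8, 200.3 and 221 in NZO, 20.7, 169.8 and 197 in Cast, 193, 213 and 230.3 in PWK and 255, 286 and 316 in WSB. Every WSB library lay above every AJ, B6, Cast, NOD, NZO and PWK library. C8g was higher in WSB, with a log2 fold change of 0.61 (SE 0.16, edgeR adjusted p = 0.0017, higher in 8 of 8 libraries), and in strain-129, 0.43 (edgeR adjusted p = 0.0473), and lower in Cast, with a log2 fold change of -0.82 (SE 0.20, edgeR adjusted p = 0.000309, lower in 7 of 7 libraries). Cast was split as in Klkb1: Cast 1, 5 and 6 lay at 67.3, 27.1 and 20.7 CPM and the other 4 between 169.8 and 197.

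The spread of C6, C8a, C8b and C9 within strains followed Xist, the RNA that silences 1 X chromosome in XX cells. The libraries fell into 31 with Xist above 600 CPM and 29 below 10 CPM, with none between 8.90 and 646 CPM, and each strain held both kinds. Their numbers were unequal in AJ (4 above 600 and 2 below 10), B6 (4 and 3) and Cast (3 and 4). In these strains the mix enters the strain contrasts of the main model. The labels give no sex and the main model did not separate these libraries. Xist was then added as a covariate, and slopes are log2 changes per doubling of it. As no library lay between 8.90 and 646 CPM, each slope mainly reflects the difference between the 2 sets of libraries. Low Xist ran from 0.193 CPM (NZO 5) to 8.90 CPM (PWK 9), so the number of doublings between the sets differed among strains. The part of this in the differences of slope given below was not tested. C6 fell by 0.36 per doubling (SE 0.034, edgeR adjusted p = 1.4e-12), C9 by 0.17 per doubling (SE 0.020, edgeR adjusted p = 8.64e-10), C8b by 0.17 per doubling (SE 0.018, edgeR adjusted p = 1.96e-11) and C8a by 0.17 per doubling (SE 0.016, edgeR adjusted p = 8.3e-13). C8g was not called. C4bp, C2 and F11 also fell, giving 7 of the 38 genes (background 18.3%), and 12 rose (background 16.5%).

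In C6 every library of low Xist lay above every library of high Xist of its own strain, in 8 of 8 strains. In NOD the low-Xist libraries held 416 to 516 CPM and the high-Xist libraries 12.3 to 16.6, and in Cast they held 385 to 2491 and 25.7 to 33.5. In WSB the values were 715 to 1097 and 9.71 to 127. In AJ, the lowest strain, the low-Xist libraries reached only 27.2 to 62.6 CPM against 9.62 to 15.5. PWK stood apart among the high-Xist libraries, with 142 to 178 CPM, where those of the other strains were at most 34.2 CPM except in WSB 1, at 127 CPM. The slope of C6 on Xist differed among strains (edgeR adjusted p = 3.67e-06), from -0.64 per doubling in Cast to -0.16 in NZO. So did that of C9, from -0.28 in WSB to -0.074 in AJ (edgeR adjusted p = 0.0473). Of the 38 genes 6 had such a difference, where 19.9% of all genes tested did, the others being C3, F5, Mbl2 and Pros1.

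C8a, C9 and C4bp were separated by Xist without overlap in 7 of 8 strains, and C8b in 6. The share of all genes separated in this way, as these and C6 were, was not counted. AJ held only 2 libraries of low Xist. In PWK, C8a was 1304 to 1559 CPM in low-Xist and 487 to 666 in high-Xist libraries, the highest of any strain in either set by median. C9 in WSB was 1071 to 1308 against 56.2 to 437 CPM, and in AJ 219 to 283 against 123 to 166. C8b in NOD was 204 to 257 against 27.1 to 61.5 CPM. The exceptions for C8a and C9 were in Cast, where Cast 5 and Cast 6 (low Xist, high Saa1) had 182 and 88.2 CPM of C9 beside 1035 and 1057 in Cast 7 and 8. Among the WSB libraries of high Xist, WSB 1 was the highest in all 4 genes and had the lowest Xist, 646 CPM.

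Strain calls of the terminal genes moved with this covariate. C6 in PWK became 1.93 (edgeR adjusted p = 3.18e-06), from 1.18 (edgeR adjusted p = 0.104) without it. C6 in WSB became 0.78 (edgeR adjusted p = 0.0765) and C9 in WSB 0.52 (edgeR adjusted p = 0.093), neither called, while C9 was called higher in NOD, 0.81 (edgeR adjusted p = 0.00787). C8a and C8b were then lower in B6, -0.82 (edgeR adjusted p = 0.00528) and -0.73 (edgeR adjusted p = 0.0257). The total of genes called in WSB was 25 with the covariate.

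**Figure D5:**
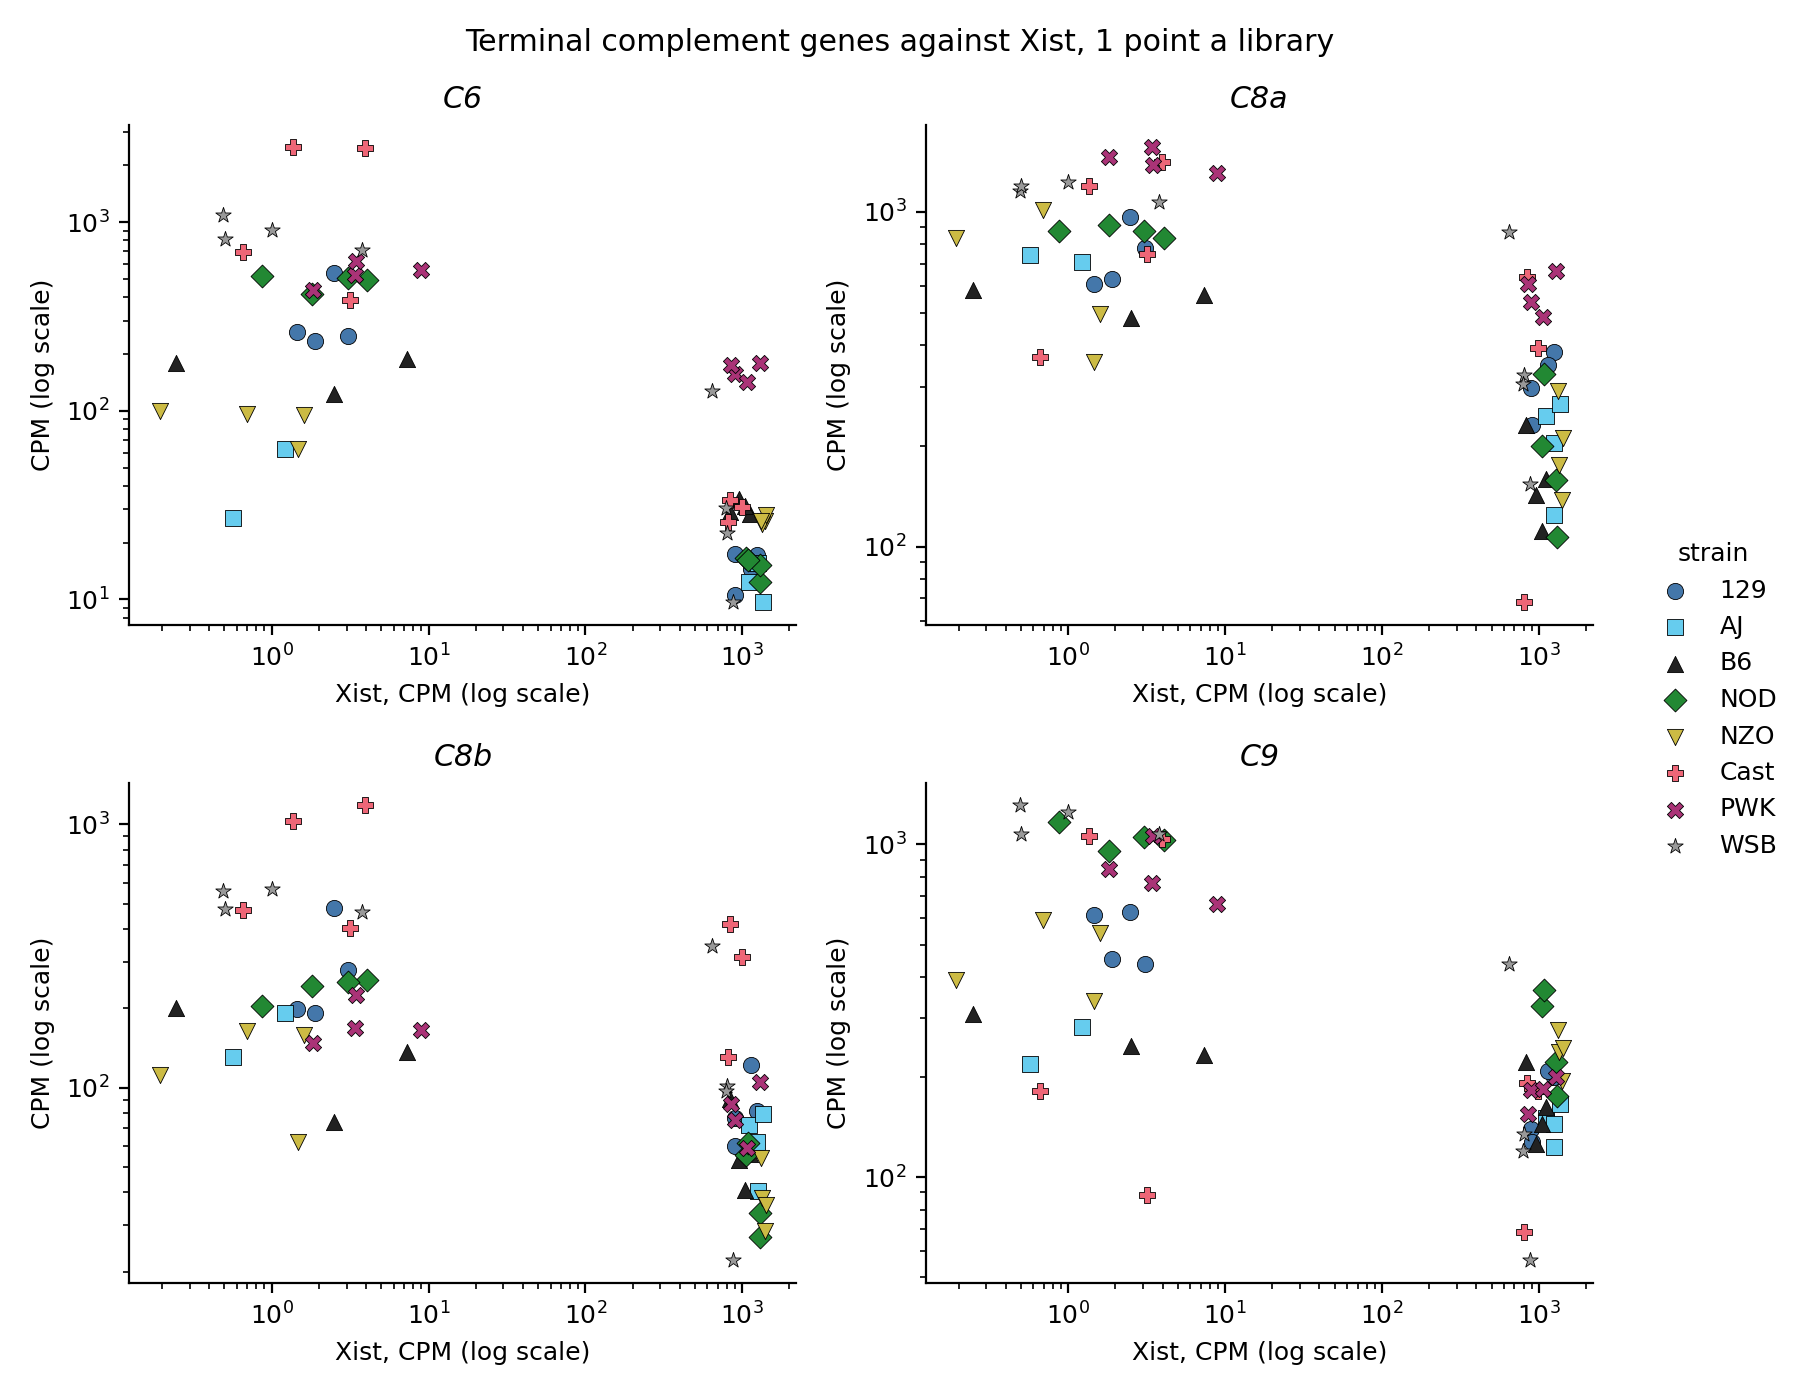
Level of C6, C8a, C8b and C9 (CPM, log scale) against Xist (CPM, log scale), with 1 point a library and a symbol for each strain. In C6 the libraries of low Xist, at the left, lie above those of high Xist, at the right, of the same strain, while across strains the levels overlap, and the 4 PWK libraries of C6 at the right, at 142 to 178 CPM, stand above all others there.

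The 12 genes that rose with Xist were C3, Cfb, Cfi, F2, F7, F9, F10, F12, F13b, Kng1, Mbl2 and Serpinc1. The steepest was Mbl2, by 0.071 per doubling (SE 0.010, edgeR adjusted p = 4.26e-08), followed by F7, by 0.051 per doubling (SE 0.007, edgeR adjusted p = 2.46e-07). In NOD, Mbl2 was 339 to 412 CPM in high-Xist and 170.2 to 183 in low-Xist libraries, in WSB 337 to 495 and 169 to 188, and in NZO 302 to 353 and 196 to 523. The NZO sets overlapped and those of NOD and WSB did not. The slope of Mbl2 differed among strains (edgeR adjusted p = 0.000468), from -0.0057 per doubling in NZO to 0.13 in WSB.

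Of 54 other genes of the 2 cascades, chosen by function, 53 were tested. In WSB 16 were higher and 14 lower (all genes tested: 22.6% and 22.4%), and in NZO 18 higher and 12 lower (26.7% and 19.5%). Cast had 14 higher and 21 lower (30.8% and 28.8%), B6 18 and 7 (19.4% and 14.7%), and PWK 13 and 11 (22.5% and 22.7%). Strain-129 had 9 and 6 (13.7% and 10.9%), AJ 5 and 9 (13.1% and 11%), and NOD 7 and 5 (16.7% and 11.6%). C4a, the other mouse C4 gene, was higher in NOD, 2.60 (edgeR adjusted p = 0.000585, 401 ± 419 CPM, SD, n = 8), and WSB, 2.57 (edgeR adjusted p = 0.000396, 394 ± 406 CPM, SD, n = 8), and lower in PWK, -3.70 (edgeR adjusted p = 0.0014, 8.82 ± 4.84 CPM, SD, n = 8), and B6, -2.97 (edgeR adjusted p = 0.0154, 13.7 ± 11.8 CPM, SD, n = 7). Within NOD it ran from 7.65 to 819.7 CPM. Cr2, a complement receptor of B cells, was higher in PWK, 2.23 (edgeR adjusted p = 3.67e-09, 1.03 ± 0.726 CPM, SD, n = 8), and Cfd, the fat-cell protease factor D, in B6, 5.57 (edgeR adjusted p = 8.51e-11, 4.84 ± 7.09 CPM, SD, n = 7), where its median was 0.0948 CPM, and in NZO, 3.03 (edgeR adjusted p = 0.000223, 1.04 ± 2.30 CPM, SD, n = 8), where it was 0.166.

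A2m, F13a1 and Itgam were called higher in NZO with fold changes of 7.70 (edgeR adjusted p = 6.79e-17, 26.4 ± 74.2 CPM, SD, n = 8), 4.19 (edgeR adjusted p = 2.66e-12, 4.85 ± 12.8 CPM, SD, n = 8) and 3.0 (edgeR adjusted p = 5.62e-11, 11.9 ± 26.5 CPM, SD, n = 8). All 3 depended on NZO 8, which held 210.1 CPM of A2m where the NZO median was 0.104: without it the values were 0.13 (edgeR adjusted p = 0.854), 0.23 (edgeR adjusted p = 0.606) and 0.73 (edgeR adjusted p = 0.0183). Among liver transcription factors, Hnf4a was higher in WSB, 0.64 (edgeR adjusted p = 2.1e-09, 948 ± 71.6 CPM, SD, n = 8), and lower in B6, -0.33 (edgeR adjusted p = 0.00405, 525 ± 40.7 CPM, SD, n = 7), and NZO, -0.27 (edgeR adjusted p = 0.00793, 543 ± 82.2 CPM, SD, n = 8). Of 12 such factors 4 were higher and 1 lower in WSB (all genes tested: 22.6% and 22.4%). In B6 1 was higher and 2 were lower (19.4% and 14.7%), and in NZO 0 were higher and 3 lower (26.7% and 19.5%). Their part in the levels of the 38 genes was not tested.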

How the data were processed

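RNA was taken from frozen, pulverised liver, spiked with external control RNAs and turned into polyA-selected libraries, per the labels. The authors deposited a table of estimated counts per gene, of which 21.0% of values were not whole, and they were rounded here; the deposited log2 values are the authors' variance-stabilised expression and served only as an alternative. GRCm38 and DESeq2 are named in the submitters' processing notes, the aligner, counter, annotation and use of strand being not given in the sources used here. Of 61 samples in the labels 60 had a column (B6 5 had none), and 1 further column matched no sample and was not used.

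Counts were normalised by TMM and filtered with edgeR 4.0.16 in R 4.3.3, and a strain-only quasi-likelihood model gave each strain against the mean of the other 7, all 28 pairs and the test among strains, adjusted by Benjamini and Hochberg within each contrast over all 16165 genes. CPM (counts relative to the library total) are TMM-normalised except in the summed marker levels, and log2 CPM used a prior count of 2. A library counts as higher or lower against the mean of the other strains' mean log2 CPM. The fit was tested on simulated data. The genes, gene lists and tests were chosen with earlier results of these data known.

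Values in every strain were given for the 12 genes of widest range over strains, the 3 most even and the fibrinogen chains. In each strain, called genes that passed 1 on the log2 scale were named, with up to 4 others by smallest p, and other pathway genes from 2 on that scale. Some genes that meet this rule are not reported here. Remaining genes were named to complete their role group. Alternatives were DESeq2 1.42.0 and its size factors, no filter, limma 3.58.1 on the deposited log2 values, Xist as a covariate, a replicate block, Rn18s-rs5 or libraries rich in it left out, and each library left out. Those that use Saa1 and the strain-specific slopes on Xist were chosen after seeing the data. Promoter sequences came from RefSeq.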

Additional observations from a re-analysis of the deposited data

Results flagged for a closer look

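In 21 of 304 combinations of a gene and a strain, 1 library lay apart from the rest of its strain by Dixon's test at the 95% level, which chance alone gives in about 1 in 20 groups. NZO 8 accounted for 9 of them. It held the highest NZO levels of C3 (21791 CPM), C4bp (959), Cpb2 (941), Fgb (11304), Kng1 (3240), Pros1 (109.7), Serping1 (1081) and Vtn (2424), and the lowest of Apoh (802). NZO 5 was lowest in F12 (118 CPM) and Masp2 (90.8). AJ 1 was highest in all 3 fibrinogen chains, with 5888 CPM of Fga, 5095 of Fgb and 4095 of Fgg, and AJ 6 lowest in C8g (98.1) and F12 (121). Cast 5 was lowest in Kng1 (1112 CPM) and Plg (1209), B6 6 in Apoh (1259), and B6 2 and WSB 6 were highest in Pros1 (71.1 and 90.5).

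The slope on Xist differed among strains, by an edgeR test of the strain-by-Xist interaction, in C6 (adjusted p = 3.67e-06), Mbl2 (edgeR adjusted p = 0.000468), C3 (0.0159), Pros1 (0.026), F5 (0.046) and C9 (0.0473).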

How the results depend on the processing

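Of the 99 calls of a gene in a strain, between 89 and 99 were kept under each of the 10 alternatives that refit all genes at once, and none turned its direction. Calls were also gained: 38 without the libraries of high Saa1, 17 with the Xist covariate, and 12 each with DESeq2 and the Saa1 covariate. The replicate block gained 11 and the other alternatives 0 to 4. Counts moved by over 1.5 times in 4 strains, and the shares of all genes called in each strain under the alternatives were not counted. B6, with 5 genes called, had 10 with DESeq2, 9 with Xist as a covariate, 9 with a replicate block, 8 with Saa1 as a covariate and 12 without the libraries of Saa1 above 500 CPM. NOD, with 4, had 7 with the Xist covariate and 8 without the libraries of high Saa1. NZO, with 16, had 10 without the libraries of Rn18s-rs5 above 10% and 27 without those of high Saa1, and AJ, with 10, had 16 without those of high Saa1. Leaving out 1 library at a time gave 5 to 8 genes in strain-129, 5 to 11 in AJ (5 without AJ 1 and 6 without AJ 8), 3 to 8 in B6 (3 without B6 6 or B6 8, 8 without NZO 8), 16 to 21 in Cast, 4 to 7 in NOD (7 without NZO 8), 13 to 21 in NZO, 8 to 14 in PWK and 21 to 28 in WSB, a median over pairs of 11.5 to 14.5 and 33 to 36 genes differing among strains. The cause was not tested. The labels do not say what a replicate number marks. In strain-129, AJ, B6, NOD and NZO, libraries numbered 1 to 4 had Xist above 600 CPM and higher numbers had it below 10 CPM. Cast 1 to 3 were above 600 and Cast 5 to 8 below 10. PWK 3 and 4 (below 10), PWK 6 and 7 and WSB 9 (above 600) departed from this order. The replicate block and the Xist covariate thus overlap, and the part of Xist in the correlations below was not tested. Deviations of same-numbered libraries of different strains correlated above 0.1 in 131 of 181 pairs (median 0.201, lowest -0.429), and those of differently numbered libraries in 566 of 1392 (median -0.070), so not every same-numbered pair passed 0.1 and the numbers were not used as pairs. With the replicate block 36 genes differed among strains, and counts other than that of B6 moved by less than 1.5 times. Beside the changes given with each gene, C6 in Cast with limma was 1.62 (adjusted p = 0.0712), C6 in NZO -1.02 (limma adjusted p = 0.274) and in WSB 0.99 (limma adjusted p = 0.278), and C8b in WSB 0.86 (limma adjusted p = 0.0779). C6 in WSB was 0.97 with the replicate block (edgeR adjusted p = 0.0789). Of the 44 values of a named gene in a strain, 36 kept their call whichever library was left out, and the 8 that did not are given with their genes. Depth of 19.98 M reads or more leaves counting error small for these genes, and the number of libraries and their spread set the precision.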

Other observations

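Among 9 genes of interleukin 6 signalling and the acute phase, 8 were higher and 1 lower in Cast, 5 were higher in WSB, and 4 were higher and 1 lower in NZO. Of all genes tested, 30.8% were higher and 28.8% lower in Cast, 22.6% higher in WSB, and 26.7% higher and 19.5% lower in NZO. Without the 5 libraries of Saa1 above 500 CPM, 2 of the 9 were higher and 1 lower in Cast, 7 were higher in WSB, and 1 was higher and 1 lower in NZO. Saa1 is itself among the 9, and Cast 3, Cast 5 and Cast 6 are among the libraries left out. Because these were chosen by Saa1, a loss of calls in Cast and NZO was partly fixed by that choice. Without NZO 8 none was higher and 1 was lower in NZO. Socs3, the feedback inhibitor of that pathway, was higher in Cast with a log2 fold change of 1.40 (edgeR adjusted p = 0.000271, 20.0 ± 28.3 CPM, SD, n = 7), Stat3, its transcription factor, with 0.62 (edgeR adjusted p = 1.12e-05, 195 ± 81.5 CPM, SD, n = 7), and Il6ra, the receptor chain, was lower in NZO with -0.89 (edgeR adjusted p = 0.000354, 43.1 ± 22.2 CPM, SD, n = 8). Without the libraries of high Saa1 the values were 0.04 for Socs3 in Cast (edgeR adjusted p = 0.928), 0.20 for Stat3 in Cast (edgeR adjusted p = 0.119) and -1.19 for Il6ra in NZO (edgeR adjusted p = 1.29e-05). Summed markers of other cell types ran from 215 to 482 CPM for sinusoidal endothelium, 166 to 466 for stellate cells, 3.38 to 25.1 for cholangiocytes and 28.6 to 518 for red cells. Marco, S100a8, S100a9, Retnlg, Cd3e, Cd79a, Ms4a1, Nkg7, Cd8a and Hba-a1 were at 0 in some libraries.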
